A study of Homo sapiens with 4 samples.

Results

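The loci of 7 ABC drug transporters were examined for open chromatin in the established ovarian carcinoma line OVSAHO by ATAC-seq, which uses a transposase to insert sequencing adapters where DNA is accessible. A peak belonged to a locus when it overlapped the hg19 span of ABCB1, ABCC1, ABCC2, ABCC3, ABCC4, ABCC5 or ABCG2 with 10 kb either side, whatever its strength. This gave 48 peaks, 11 narrow and 37 broad, of 78048 in the 8 peak lists on chromosomes 1 to 22 and X. The test cells, named OVSAHO-A2-siA4 in the design, had SMARCA2 raised stably and SMARCA4 knocked down, the alternative ATPases of the SWI/SNF chromatin remodelling complexes. The control cells, OVSAHO-Ctrl-siNC, had a wild-type genotype label. Both groups had been kept in carboplatin, a DNA-crosslinking platinum drug, for 2 days at 25 µM, and untreated cells were not among the samples. There were 2 libraries per group (test 1, test 2, control 1, control 2), and the labels do not say that these came from separate cultures, so the p-values cover variation among these libraries only, and that variation may be technical. Whether the stable cells are a single clone is not given in the sources used here, and expression of SMARCA2, of SMARCA4, of the transporters or of ovarian lineage markers was not analysed here.

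ABC transporters use ATP to pump substrates out of the cell, and several of them limit how much of a drug a tumour cell retains. ABCB1 encodes P-glycoprotein, the classical multidrug exporter, and ABCG2 encodes BCRP, which works as a dimer. The ABCC genes encode multidrug resistance proteins, which mostly export organic anions such as glutathione conjugates. An open promoter or enhancer is a common feature of a transcribed gene, but an ATAC-seq peak does not measure transcription or transport.

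The narrow peaks came from the nucleosome-free fragments of a library and the broad peaks from all of its fragments. The narrow lists rested on 6146272 to 15828837 fragments and held 3402 to 10360 peaks, and the broad lists rested on 22432549 to 31515662 fragments and held 8895 to 18484 peaks. Control 1 was the deepest library in both. Fold enrichment below is the authors' value for a peak, its fragment pileup over the local background of the same library, with 1 added to both. Recovered in this way, the background was 0.247 to 0.567 at the narrow peaks of these loci. Their fold enrichment is therefore far below the plain ratio and follows the pileup closely. A percentile is the share of peaks in that library's own list with the same or a lower fold. Since each library was called alone and its values were not scaled to the others, a missing peak means only that the site did not reach the authors' threshold (q of 0.05) in that library.

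The 1 site that 3 libraries shared in both peak types lay at the 5′ end of ABCC5, which encodes MRP5, an exporter of cyclic nucleotides and nucleotide analogues. Test 1, test 2 and control 2 each had a narrow peak just upstream of the 5′ end of the locus, in a merged region on chromosome 3 at 183735739 to 183735862 (hg19), and control 1 had none. The peak of control 2 had a pileup of 9 fragments, a fold enrichment of 7.06 and a −log10 q of 6.11. The peak of test 2 had a pileup of 7, a fold enrichment of 5.63 and a −log10 q of 3.54. The peak of test 1 had a pileup of 5, a fold enrichment of 4.41 and a −log10 q of 1.84. Within their own narrow lists, which differ in length, they stood at the 74.0, 49.2 and 11.1 percentile. The peaks of control 2, test 2 and test 1 reached from 110 to 12, from 109 to 38 and from 135 to 44 bp before the 5′ end. Test 2 alone had a second narrow peak inside the gene, from 377 to 442 bp after the 5′ end, with a fold enrichment of 5.58.

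The same 3 libraries had a broad peak across the 5′ end of ABCC5. It was 482 bp long in test 1, 618 bp in test 2 and 708 bp in control 2. In that order its fold enrichment was 4.25, 3.70 and 3.82, each over the background of its own library. The nearest broad peak of control 1 lay 9.345 kb upstream and its nearest narrow peak 42.1 kb away. That library had the most fragments but the lowest median fold enrichment over whole lists, 5.11 for narrow and 3.55 for broad peaks. Of its broad peaks 5.33% reached a −log10 q of 5, against 14.3% to 32.1% in the other libraries. The header of its broad list gave a fragment size of 131 bp, against 178 to 182 bp in the others. Whether this bears on its missing peaks was not tested. Among all merged narrow regions of the series, 3.82% were called in every library but control 1, and among broad regions 10.5% were. At the transporter loci this was 1 of 9 narrow and 2 of 29 broad regions, so many other sites of the series had the same pattern. The other 6 broad peaks of ABCC5, 4 of control 1, 1 of test 2 and 1 of control 2, were each in a single library, with a fold enrichment of 3.25 to 4.25.

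Promoter sequences are shown for ABCC5, ABCC4 and ABCC2, the 3 genes with a peak within 1 kb of the 5′ end of the locus. They are the 250 bases before the gene's start in RefSeq (GRCh38.p14), written 5′ to 3′ on the gene's strand. Peaks are in hg19, so these windows were not placed on the peak coordinates. Capitals mark matches to the searched motifs.
ABCC5, GRCh38.p14 chr3:184017885-184018134, minus strand: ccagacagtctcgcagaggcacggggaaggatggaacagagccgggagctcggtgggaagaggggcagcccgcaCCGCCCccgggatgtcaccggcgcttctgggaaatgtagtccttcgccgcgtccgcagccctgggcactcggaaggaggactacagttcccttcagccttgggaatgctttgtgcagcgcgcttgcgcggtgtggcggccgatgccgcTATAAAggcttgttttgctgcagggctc
ABCC4, GRCh38.p14 chr13:95301452-95301701, minus strand: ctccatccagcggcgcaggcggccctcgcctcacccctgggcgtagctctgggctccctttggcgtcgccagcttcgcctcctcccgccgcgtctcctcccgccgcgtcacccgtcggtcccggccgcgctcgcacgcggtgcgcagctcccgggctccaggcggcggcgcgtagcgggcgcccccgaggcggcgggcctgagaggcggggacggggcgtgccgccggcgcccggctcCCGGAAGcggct
ABCC2, GRCh38.p14 chr10:99782390-99782639, plus strand: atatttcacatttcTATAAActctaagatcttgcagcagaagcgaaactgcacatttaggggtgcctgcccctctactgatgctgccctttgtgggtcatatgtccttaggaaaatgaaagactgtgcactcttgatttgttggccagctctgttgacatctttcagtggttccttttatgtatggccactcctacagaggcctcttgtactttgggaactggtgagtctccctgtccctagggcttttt

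The ABCC5 window held a GC box (GGGCGG) from 176 to 171 bases before the start, read on the other strand, and a TATA box (TATAAA) from 28 to 23 bases before it. The ABCC4 window held an ETS-type motif (CCGGAAG) from 12 to 6 bases before the start. The ABCC2 window held a TATA-box match far from the start, from 236 to 231 bases before it. CCAAT and the AP-1 motif TGANTCA had no match in these 3 windows, which says only that these letters are not there. Both strands were searched, and no match overlapped one of another motif in these 3 windows. Of 35097 RefSeq promoter windows of this length, 42.6% held GGGCGG, 32.0% CCAAT, 10.7% TATAAA, 8.52% CCGGAAG and 6.57% TGANTCA. A match is a description and not evidence of binding.

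The windows differed widely in base composition. GC content was 64.8% for ABCC5, 80.4% for ABCC4 and 45.6% for ABCC2, against a median of 58.0% over all windows. The ABCC5 window held 21 CpG dinucleotides, the ABCC4 window 42 and the ABCC2 window 1. RefSeq lists 2 starts for ABCB1, with 39.2% GC at the upstream one and 55.6% at the downstream one, and 5 starts for ABCG2, with 40.0% to 73.6%. ABCC1 and ABCC3 had no entry.

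**Figure D1:**
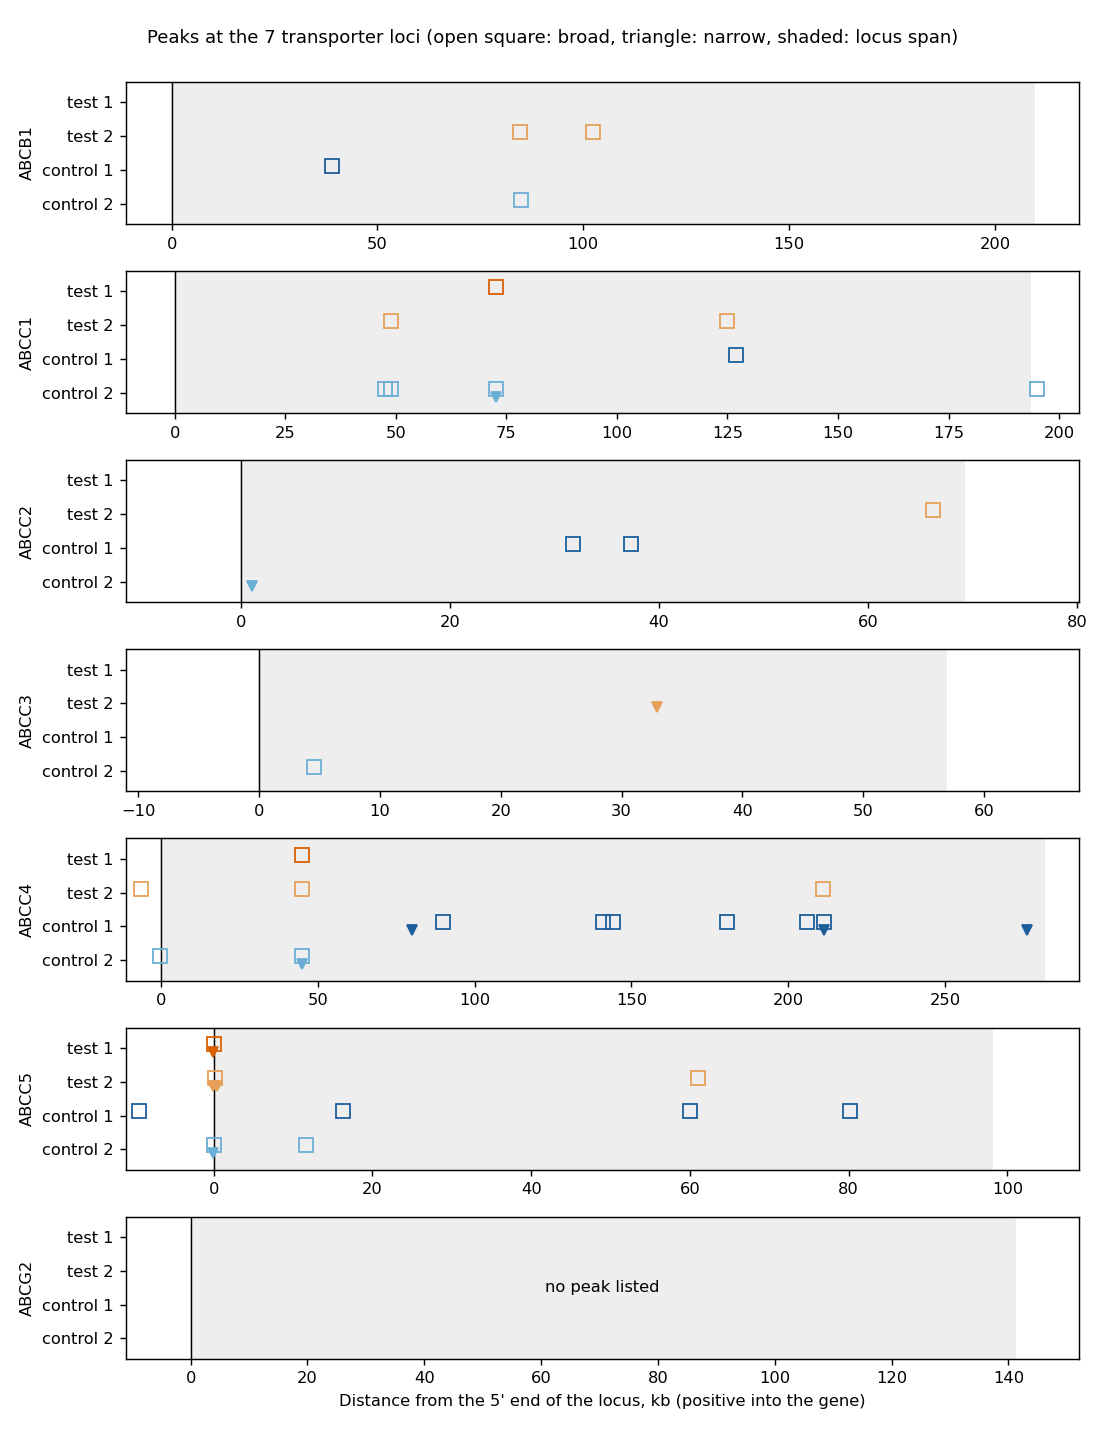
Position of each narrow peak (triangle) and broad peak (open square) in the 4 libraries at the 7 loci, in kb from the 5′ end of the locus, with the locus span shaded. Peaks of test 1, test 2 and control 2 coincide at the ABCC5 5′ end and about 45 kb into ABCC4, control 1 peaks lie mostly at other positions, and ABCG2 is empty.

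ABCC4, which encodes MRP4, an exporter of cyclic nucleotides and nucleotide analogues, held the most peaks, 4 narrow and 12 broad, in the longest of the 7 spans. Its most widely shared site lay inside the gene, 45.0 kb from the 5′ end, on chromosome 13 at 95908393 to 95908732. Broad peaks were listed there in 3 libraries and not in control 1. That of control 2 had a fold enrichment of 5.71 and a −log10 q of 12.1, and this −log10 q was the highest of the 48 peaks. That of test 1 had 5.08 and 6.97, and that of test 2 had 3.67 and 3.19. They stood at the 94.6, 80.1 and 53.8 percentile of their broad lists. Control 2 also had a narrow peak of 296 bp there, with a fold enrichment of 7.55, the longest narrow peak of these loci. The site was thus listed in both test libraries and in 1 of the 2 control libraries.

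A different ABCC4 site was seen in control 1. It lay 211 kb into the gene, at 95742349 to 95742839, with a broad peak in control 1 (fold enrichment 3.91) and in test 2 (4.01) and no broad peak in test 1 or control 2. Control 1 also had a narrow peak there with a fold enrichment of 6.86 and a −log10 q of 5.86, the 86.3 percentile of its narrow list. This was the 1 region of the 7 loci that control 1 shared with another library. At the 5′ end of ABCC4 only control 2 had a peak, a broad one from 440 to 70 bp upstream. Its fold enrichment of 2.87, at the 4.61 percentile of the broad list, was the lowest of the 37 broad peaks. The remaining ABCC4 peaks were 2 narrow and 5 broad ones of control 1 and a broad one of test 2, each in a single library.

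ABCC1 encodes MRP1, which exports glutathione, glucuronide and sulfate conjugates. No library had a peak within 1 kb of its 5′ end, where the nearest broad peaks inside the locus lay 47.4 kb into the gene in control 2 and 48.9 kb in test 2. A site 72.5 kb into the gene, on chromosome 16 at 16115906 to 16116169, had a broad peak of test 1 with a fold enrichment of 3.66, one of control 2 with 4.82 and a narrow peak of control 2 with 4.75. A second site at 16092276 to 16092477 had a broad peak with 3.75 in test 2 and 3.29 in control 2. At both sites a test library and control 2 had the peak, and the other 2 libraries did not. The remaining 4 broad peaks of ABCC1 were each in a single library, 2 of control 2, 1 of test 2 and 1 of control 1.

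ABCB1 had 4 broad peaks and 0 narrow ones. A site 84.1 to 85.6 kb inside the locus, on chromosome 7 at 87256938 to 87258468, had a broad peak of 799 bp in test 2 with a fold enrichment of 3.33 and one of 1531 bp in control 2 with 3.38. The control 2 peak was the longest of the 48, and test 1 and control 1 had none there. The RefSeq table lists RUNDC3B, a protein-coding gene, as overlapping ABCB1. Without an hg19 annotation the site was not assigned to a start of either gene. The other broad peaks had a fold enrichment of 3.50 in test 2, 102 kb into the locus, and 3.74 in control 1, 38.8 kb into it. No peak lay within 1 kb of the 5′ end of the locus, taken as the outer end of its span. The main ABCB1 start lies inside the span and was not placed in hg19, so nothing is said here of that promoter.

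ABCC2 and ABCC3 encode MRP2 and MRP3, which export conjugates across the apical and the basolateral membrane. ABCC2 had a narrow peak in control 2 from 970 to 1053 bp after the 5′ end, on chromosome 10 at 101543433 to 101543516, with a pileup of 6 fragments and a fold enrichment of 5.61. No broad peak of any library lay there. The ABCC2 broad peaks were 2 in control 1, with a fold enrichment of 3.91 and 3.26, and 1 in test 2, with 3.57. ABCC3 had a narrow peak in test 2, with a pileup of 4 fragments and a fold enrichment of 4.01, and a broad peak in control 2, 4.41 kb into the gene, with 3.74. Each of these 6 peaks was found in a single library.

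The ABCG2 locus held 0 peaks in all 8 lists. The nearest broad peaks lay 53.3 kb upstream of its 5′ end in test 1, test 2 and control 2, at 4.94-fold, 5.61-fold and 6.10-fold enrichment, and 484 kb away in control 1. These lie outside the 10 kb flank and were not counted. As at ABCB1, the 5′ end is the outer end of the span, and the RefSeq starts of ABCG2 were not placed in hg19. The distances given are therefore not distances to a particular ABCG2 promoter.

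**Figure D2:**
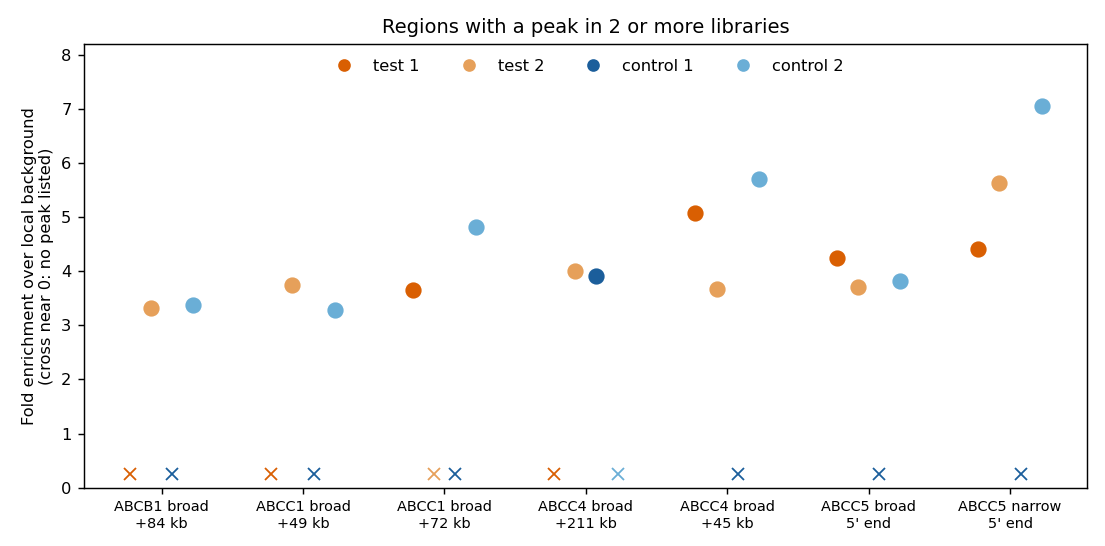
Fold enrichment over the local background at the 7 regions with a peak in 2 or more libraries, 6 broad and 1 narrow, with a cross near 0 where a library lists no peak. Each region holds a peak of at least 1 test and 1 control library, and control 1 has a peak only at the ABCC4 site 211 kb from the 5′ end.

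The comparison of the groups asked whether the number of accessible sites at these transporter genes differed between cells with more SMARCA2 and less SMARCA4 and the controls. At the 7 loci test 1 had 1 narrow peak and test 2 had 3, while control 1 had 3 and control 2 had 4. The means were 3.5 ± 0.71 in control and 2.0 ± 1.4 in test libraries (SD, n = 2 per group), and the groups touched at 3. Of broad peaks test 1 had 3 and test 2 had 10, while control 1 had 14 and control 2 had 10. Their means were 12 ± 2.8 in control and 6.5 ± 4.9 in test libraries (SD, n = 2 per group). The groups touched at 10. By exact permutation of the libraries (two-sided) p was 0.67 for narrow and 0.67 for broad peaks, and 0.67 for both after Benjamini-Hochberg adjustment over the 2 tests. The smallest p such a design can give is 0.33. Narrow peaks at the loci covered 92 bp in test 1 and 206 bp in test 2, and 328 bp in control 1 and 572 bp in control 2, so the groups did not overlap in covered length (exact permutation, two-sided, p = 0.33, the smallest possible). Broad peaks covered 1051 and 3667 bp in the test and 2964 and 4478 bp in the control libraries, where the groups overlapped. The whole narrow lists also separated by group, with 3402 and 4171 peaks in the test and 10360 and 5442 in the control libraries. Covered length did not simply follow the number of peaks. The 14 broad peaks of control 1 covered 2964 bp, and the 10 of control 2 covered 4478 bp. Whether list length bears on covered length was not tested. The differences of 1.5 narrow and 5.5 broad peaks were not separable from the spread between libraries.

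Test 1 had the shortest lists and the fewest transporter peaks. Per 1000 peaks of its narrow list, test 1 had 0.294 at the loci and test 2 had 0.719, while control 1 had 0.290 and control 2 had 0.735. The group means were 0.507 ± 0.30 in test and 0.512 ± 0.31 in control libraries (SD, n = 2 per group), so the narrow difference was 0.0057. Per 1000 broad peaks test 1 had 0.337 and test 2 had 0.717, while control 1 had 0.757 and control 2 had 0.749. Both control values lay above both test values there (exact permutation, two-sided, p = 0.33), and test 2 was close to the controls. As a share of its broad list, test 1 had 0.0337% of its peaks at the loci (95% exact interval 0.00696 to 0.0985), against 0.0717% (0.0344 to 0.132) in test 2, 0.0757% (0.0414 to 0.127) in control 1 and 0.0749% (0.0359 to 0.138) in control 2. These Clopper-Pearson intervals overlap and cover counting error only.

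The loci with their flanks span 1.19 Mb. Narrow peaks there came to 0.841 per Mb in test 1 and 2.52 in test 2, beside 1.26 and 1.54 per Mb when each whole list is spread over the effective genome of 2700 Mb. Control 1 had 2.52 and control 2 had 3.36, beside 3.84 and 2.02. Broad peaks numbered 2.52, 8.41, 11.8 and 8.41 per Mb at the loci, beside 3.29, 5.16, 6.85 and 4.95. The loci were below that average in test 1 for both peak types and in control 1 for narrow peaks, and above it in the other 5 lists. With 1 to 14 peaks per list these are descriptions of small counts.

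**Figure D3:**
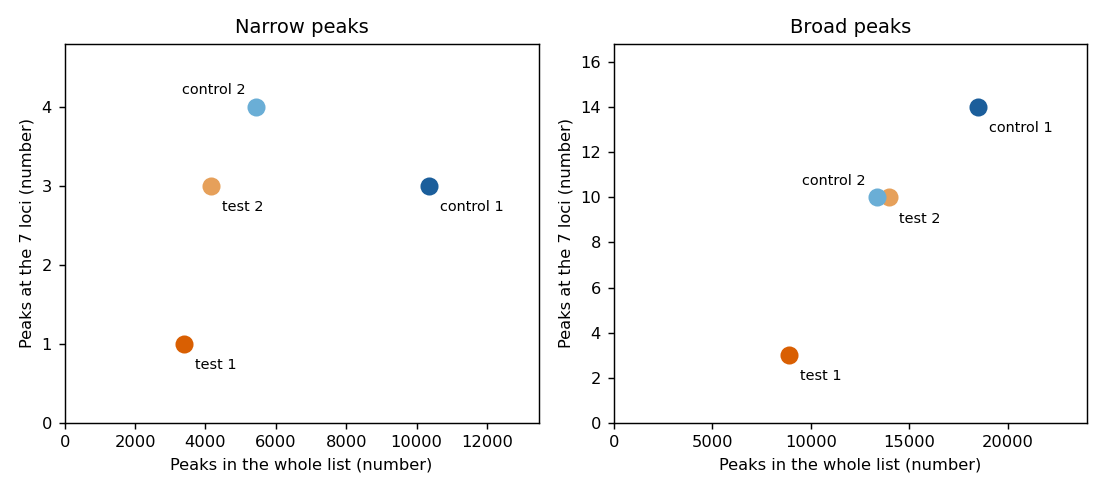
Number of peaks at the 7 loci against the number in the whole list, for narrow and broad peaks, with 1 point per library. In broad peaks the order runs from test 1, with 3 of 8895, to control 1, with 14 of 18484, while in narrow peaks control 1 has 3 of 10360.

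No region at the transporter loci was specific to a group. Peaks of the 4 libraries that shared 1 bp or more merged into 9 narrow and 29 broad regions. Of the narrow regions, 0 were called in both libraries of the test group and in no control, and 0 in the reverse way, where each pattern made up 1.25% of the 17554 merged narrow regions of the series. Of the broad regions, 0 were test-only and 0 control-only, where the series had 1.03% and 1.24% of 36726. The 95% exact interval of a count of 0 reaches 33.6% for 9 regions and 11.9% for 29, so a share near the background was not detectable at this size. Without control 2, the 13 broad regions that control 1 alone held would count as control-only, and without test 1, 5 broad regions would count as test-only.

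Most of these regions were seen once. A single library had the peak at 8 of 9 narrow and 23 of 29 broad regions, beside 80.7% and 70.4% over the series, and 2 or more libraries had it at 1 and 6, beside 19.3% and 29.6%. Control 1 alone accounted for 3 of the 9 narrow and 13 of the 29 broad regions, beside 49.9% and 38.0% over the series. The shares at the loci were 33.3% (95% exact interval 7.49 to 70.1) and 44.8% (26.4 to 64.3), and the intervals include those values. The intervals treat regions as independent, although all 3 of these narrow regions lie in ABCC4. Not 1 region was called in all 4 libraries, where the series had 3.86% of narrow and 3.04% of broad regions in that state. The 95% exact intervals of these counts of 0 reach 33.6% and 11.9%, so they include the shares of the series.

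Narrow and broad calls coincided in part. Of the 11 narrow peaks, 7 overlapped a broad peak of the same library: all 4 at ABCC5, those of control 2 at ABCC1 and 45.0 kb into ABCC4, and that of control 1 211 kb into ABCC4. The 4 without one were the ABCC2 peak of control 2, the ABCC3 peak of test 2 and 2 ABCC4 peaks of control 1. Within 1 kb of a 5′ end lay 5 of 11 narrow peaks, at ABCC5 and ABCC2, and 4 of 37 broad peaks, at ABCC5 and ABCC4. The 3 narrow peaks just upstream of ABCC5 form a single merged region, and so do the 3 broad peaks across its 5′ end. Such shares over the whole lists are not given here, so these counts are not a comparison with the series.

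The transporter peaks spread over most of the range of strength in their lists. Narrow peaks had a fold enrichment of 4.01 to 7.55 (median 5.58) and lay between the 4.63 and 86.3 percentile (median 47.5). Broad peaks had 2.87 to 5.71 (median 3.70) and lay between the 4.61 and 94.6 percentile (median 55.6). The stricter level of 5 in −log10 q was reached by 3 narrow peaks, those of control 2 at ABCC5 and ABCC4 and of control 1 at ABCC4. It was also reached by 4 broad peaks, the ABCC4 site 45.0 kb into the gene in test 1 and control 2, the ABCC1 site 72.5 kb into the gene in control 2 and an ABCC5 site 59.9 kb into the gene in control 1, at a fold enrichment of 4.21. Test 2, with 13 transporter peaks of both types, had 0 at that level. Over whole lists that level was reached by 25.6% to 45.2% of narrow peaks (39.1% in test 2) and by 5.33% to 32.1% of broad peaks (14.3% in test 2).

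**Figure D4:**
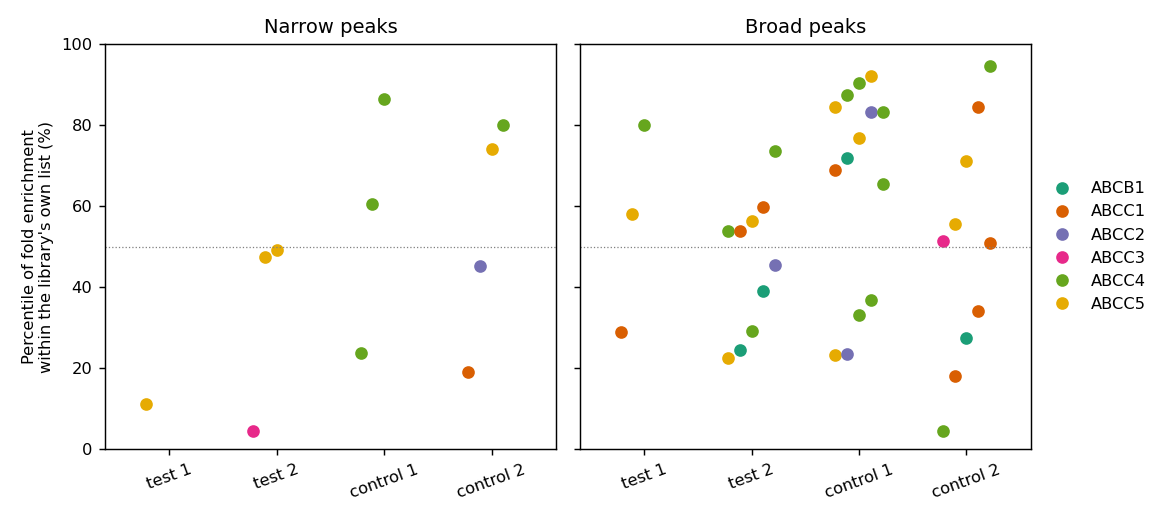
Percentile of fold enrichment of each transporter peak within the list of its own library, by library and peak type, coloured by locus, with a dotted line at the middle of the list. Narrow peaks run from 4.63 to 86.3 and broad peaks from 4.61 to 94.6, with ABCC4 peaks at the top in both types.

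Outside the gene spans the 10 kb flank took in 7 peaks, and 19 more lay beyond it within 50 kb. The outermost peak inside it was the broad peak of control 1 that lay 9.345 kb upstream of ABCC5, with a fold enrichment of 3.94, and the first one outside was a broad peak of control 1 that lay 10.961 kb beyond ABCC2, with 3.35. Among those left out was a site beyond the 3′ end of ABCC5, with the nearest edges of its peaks 34.7 to 35.0 kb away. It had a peak of each type in test 1, test 2 and control 2 and in neither list of control 1. Its broad peaks had a fold enrichment of 4.39, 4.94 and 4.50 and its narrow peaks 4.96, 6.38 and 8.35, in that order.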

How the data were processed

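Open chromatin was measured in 4 ATAC-seq libraries of OVSAHO cells, 2 test and 2 control, grouped by the labels. The submitters' processing notes name, with hg19, edgeR 3.34.1, deepTools 3.5.1, Bowtie2 2.3.5.1, MACS2 2.2.7.1, cutadapt 3.2 and Picard. MACS2 called the peaks of each library alone, per the file headers, from transposase-shifted paired-end fragments, with no control sample, all duplicates kept, an effective genome size of 2.7e+09 and a q threshold of 0.05. The deposited pileup is a coverage signal, and the deposited fold enrichment is a ratio to the local background within that library, with the addition described above. The deposited p-values and q-values are on the −log10 scale. Any duplicates left in the input would add to the pileup, and deeper libraries can pass the threshold at weaker sites. The authors' values rank peaks within a list only.

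Coordinates are 1-based. On chromosomes 1 to 22 and X, peaks within 10 kb of a locus were counted (696 peaks on other chromosomes or contigs were left out), peaks sharing 1 bp were merged across libraries, and group means were compared by exact permutation over 6 assignments. Depth limits precision, and intervals cover counting error only. The merging was tested on simulated data. Gene strands came from general knowledge, and promoter windows came from RefSeq by symbol for 5 of the 7 genes. All 7 loci were named, with each region called in 2 or more libraries or within 1 kb of a 5′ end. Members and lists were chosen with earlier results of these data known, and the motifs after the sequences were seen. Planned lists of other transporters and of lineage markers were not analysed here, for lack of an hg19 annotation. Alternatives were flanks of 0 and 50 kb, a stricter −log10 q of 5, equal list lengths, an overlap of 50%, merging within 100 bp, rates per 1000000 fragments or 1000 peaks, each library left out and a replicate block. The tools were scipy 1.17.1, pandas 2.3.3, numpy 2.4.6 and matplotlib 3.10.9 in Python 3.11.15.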

Additional observations from a re-analysis of the deposited data

How the results depend on the processing

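The control excess of 1.5 narrow and 5.5 broad peaks kept its direction under every alternative run, and no exact permutation test could pass the threshold with these numbers of libraries. Leaving out a library gave 0.5 to 2.5 narrow and 2.0 to 9.0 broad peaks. With lists of equal length the excess was 0.5 and 3.5 peaks, and at a −log10 q of 5 or more 1.5 and 1.0. Per 1000 peaks of the list the narrow excess all but vanished, at 0.0057. The means were 0.512 in control and 0.507 in test libraries. The broad excess on that scale was 0.226, on means of 0.753 and 0.527. With the replicate number as a block the excess in peaks was again 1.5 (exact p = 0.5) and 5.5 (exact p = 1.0). The labels do not say that the numbers pair the libraries. Counts of test-only and control-only regions stayed at 0 under both other ways of merging, both other flanks, equal lists and the stricter threshold. They moved only when a library was left out, which lets a single library stand for its group: test-only narrow regions to 0 to 2, control-only narrow to 0 to 3, test-only broad to 0 to 5 and control-only broad to 0 to 13. Without test 1 there were 2 narrow and 5 broad test-only regions, without control 2 there were 1 and 2, and 3 and 13 control-only ones, and without control 1 there were 3 and 5 control-only ones. At the stricter threshold each of the 7 regions shared by libraries lost peaks: 4 were left in no library, among them the ABCC5 broad region, the ABCC5 narrow region and the ABCC1 site 72.5 kb into the gene in control 2 alone, and the ABCC4 site 45.0 kb into the gene in 2 libraries. With equal lists the ABCB1 site was left in no library and the ABCC1 site at 16092276 in 1. A pileup of only 4 to 10 fragments lay behind each narrow peak, so these calls rest on small counts. Whether depth bears on them was not tested.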
